A study of Mus musculus with 16 samples.

Results

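The proximal T cell receptor signaling genes followed here are the kinases and phosphatases that start the receptor signal and the adaptors that pass it on. They were taken by name: Lck, Fyn, Zap70, Lat, Lcp2, Tec, Csk, Ptpn22 and Ptpn6, each read from its brightest array feature that is annotated with that gene alone. Of the 9 listed genes, 8 had such a feature, 1 each, out of 22180 genes with a feature of their own on the array. Lck had none and was not analysed here. All 8 measured genes were above the array median on every one of the 16 arrays, so all 8 were among the 12932 genes tested. The genes that the results turn on lie, on GRCm38.p6, at chr7:126363827-126369705 (Lat), chr11:34046928-34092281 (Lcp2), chr5:72755718-72868654 (Tec) and chr6:124720707-124738709 (Ptpn6).

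RNA came from thymic T cell lymphomas and from normal thymic T cells of mice, with 1 Affymetrix Mouse Gene ST array per sample and values on the log2 scale. The groups were 3 Lck-Dlx5 lymphomas at 9 months (founder lines 63, 47 and 86, 1 each), 3 Lck-MyrAkt2 tumors of founder line 72 and 3 of founder line 420, both at 5 months, 4 tumors that carried Lck-Dlx5 together with Lck-MyrAkt2, called double transgenic here (2 each of Lck-Dlx5 founder lines 47 and 86), at 2 months, and 3 samples labelled as wild-type (WT) littermates at 9 months. Dlx5 encodes a homeodomain protein that binds DNA, and MyrAkt2 is Akt2 kinase with a myristoylation signal that keeps it at the membrane and switched on. Both transgenes run from the Lck promoter, that is, from the regulatory region of the one listed gene that could not be read, so their expression is directed to T cells. Lck-Dlx5 lymphomas and WT were of the same age, as were both Lck-MyrAkt2 lines, and in all other comparisons the effects of age and genotype cannot be told apart. Between line 72 tumors and WT, sex cannot be told apart from genotype either, since the Y-linked gene Kdm5d averaged a log2 level of 3.92 in line 72 tumors and 9.52 in WT and Xist averaged 11.93 in line 72 tumors and 5.52 in WT. Kdm5d ranged from 3.24 to 9.14 in Lck-Dlx5, 3.78 to 9.04 in line 420 and 3.76 to 8.99 in double transgenic tumors. In WT it was 9.42 to 9.63, so sex was not matched between these groups and WT or line 72 tumors.

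When a T cell receptor meets its ligand, the Src family kinases Lck and Fyn phosphorylate the receptor chains, and Zap70 docks there and is activated. Zap70 then phosphorylates the adaptors Lat and SLP-76, the product of Lcp2, which together form the platform where phospholipase C-gamma, Vav1 and Tec family kinases act. Csk and the phosphatase encoded by Ptpn22 hold the Src kinases back, and SHP-1, the product of Ptpn6, dephosphorylates several of these proteins.

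The start regions of Lcp2 and Tec are shown because these 2 genes had the largest differences from WT among the 8, lower for Lcp2 and in opposite directions for Tec. Both are windows from RefSeq on GRCm38.p6, 250 bases before to 50 after the start, 5′ to 3′ on the strand of the gene. The Lcp2 window lies at chr11:34046678-34046977 on the plus strand and the Tec window at chr5:72868399-72868698 on the minus strand. Capitals mark TAATT, the short motif known for Dlx proteins, or AATTA, its reverse complement.
Lcp2: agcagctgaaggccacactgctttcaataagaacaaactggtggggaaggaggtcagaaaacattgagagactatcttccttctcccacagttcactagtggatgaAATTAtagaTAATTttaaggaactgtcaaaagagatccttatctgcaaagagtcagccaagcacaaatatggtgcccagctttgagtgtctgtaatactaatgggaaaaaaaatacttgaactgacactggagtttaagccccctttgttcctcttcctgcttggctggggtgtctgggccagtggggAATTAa
Tec: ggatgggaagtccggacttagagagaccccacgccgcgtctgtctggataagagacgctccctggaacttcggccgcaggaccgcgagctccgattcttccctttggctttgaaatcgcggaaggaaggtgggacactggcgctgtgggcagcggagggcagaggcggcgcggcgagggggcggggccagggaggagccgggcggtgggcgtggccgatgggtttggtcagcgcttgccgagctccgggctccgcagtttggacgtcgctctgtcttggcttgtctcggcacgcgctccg
The Lcp2 window held 3 matches and the Tec window 0, with a GC content of 43.3% for Lcp2 and 67.7% for Tec. Of the 14 RefSeq windows of the 9 genes, 3 held a match, and these belonged to Lcp2, Csk and Ptpn22. A match was found in 27% of 32851 windows of this length, so it is common, and it is given as a description of the sequence only.

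The tumors labelled Lck-MyrAkt2 line 420 carried Dlx5 transcript at log2 levels of 9.87 to 10.69, beside 11.45 to 12.30 in Lck-Dlx5 lymphomas, 6.05 to 6.07 in line 72 tumors and 5.70 to 5.82 in WT. Their labels name no Dlx5 transgene, lymphomas of Lck-MyrAkt2 mice are known from earlier work to express the mouse's own Dlx5 gene, and the array does not tell it from the transgene. The other comparisons were also fitted without them. Akt2 was 9.91 to 10.035 in line 72, 9.56 to 9.65 in line 420 and 9.58 to 10.11 in double transgenic tumors. It was 9.46 to 9.63 in Lck-Dlx5 lymphomas and 9.74 to 9.91 in WT, so its level did not set the MyrAkt2 groups apart. Array medians lay between 6.32 and 6.46. T cell markers were detected in all groups: 5 or 6 of the 6 measured markers (Cd3e, Cd3d, Cd3g, Thy1, Cd2, Cd5) were above the array median on every array. The neutrophil markers differed between groups. All 7 were above the array median in each WT sample and 3 to 7 of them in line 72 tumors, but 0 of 7 in Lck-Dlx5, line 420 and double transgenic tumors. Thymic epithelium markers were lower than WT (limma adjusted p under 0.05) in 6, 5, 6 and 5 of 6 in Lck-Dlx5, line 72, line 420 and double transgenic tumors. In the same order, 3, 4, 1 and 1 of 5 B cell markers and 2, 1, 0 and 2 of 2 tested mast cell markers were lower. The part of these cell types in the comparisons with WT was not tested. All samples were bulk RNA, in which fewer cells of a type and less RNA per cell cannot be told apart.

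Against WT, 3 of the 8 genes were lower and 0 higher in Lck-Dlx5 lymphomas, at an adjusted p under 0.05 in limma. Of all tested genes, 15.9% were called lower and 13.7% higher in that comparison. In line 72 tumors 2 of 8 were lower, where the share over all genes was 15.6%, and 1 of 8 was higher, where it was 20.7%. In line 420 tumors 2 of 8 were lower and 0 higher, against 15.4% lower and 15.1% higher over all genes. In double transgenic tumors 0 of 8 were called, against 8.93% lower and 14.9% higher over all genes. The median log2 difference of the 8 genes from WT was -0.13 in Lck-Dlx5, 0.09 in line 72, -0.40 in line 420 and -0.26 in double transgenic tumors, beside medians of 0.00, 0.04, 0.03 and 0.05 over all tested genes. The 4 comparisons share the same 3 WT arrays. The genes that moved were the adaptors Lat and Lcp2, the kinase Tec and the phosphatase gene Ptpn6, while Fyn, Zap70, Csk and Ptpn22 were called in none of the comparisons planned, with all 16 arrays in the fit.

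**Figure D1:**
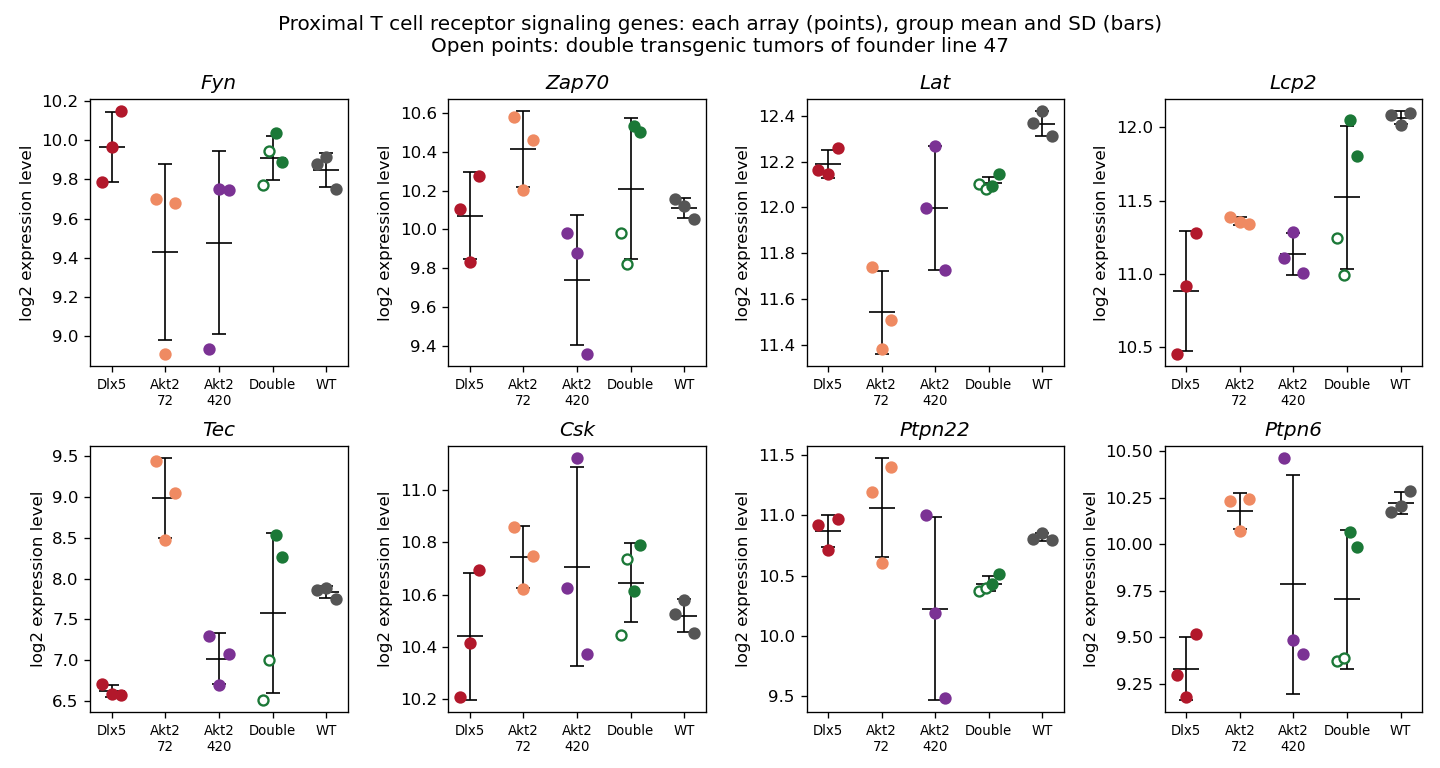
Log2 expression level of the 8 measured genes (y axis, a separate scale for each gene) in every array, by group on the x axis, with the group mean and SD as bars; open green points are double transgenic tumors of founder line 47. The 3 WT arrays of Lcp2 lie between 12.02 and 12.10, above every tumor except 1 of the double transgenic tumors at 12.05, and Tec is between 6.51 and 7.30 in the Lck-Dlx5, line 420 and line 47 double transgenic tumors.

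Fyn and Zap70, the measured kinases that act at the receptor itself, passed no test against WT. Fyn was 9.79, 9.96 and 10.15 in Lck-Dlx5 lymphomas, 9.70, 8.91 and 9.68 in line 72 tumors, 8.94, 9.75 and 9.74 in line 420 tumors, 9.77, 9.94, 10.03 and 9.89 in double transgenic tumors, and 9.88, 9.91 and 9.75 in WT. One line 72 tumor and one line 420 tumor lay below all other arrays. The 3 line 72 arrays were all below WT, and the other tumor groups overlapped with it. The difference from WT was between -0.42 ± 0.22 (SE, line 72, limma adjusted p = 0.167, 95% interval -0.90 to 0.07) and 0.12 ± 0.22 (Lck-Dlx5, adjusted p = 0.726). Both low arrays weighed on their group: without line 72 replicate 2 the line 72 difference was -0.16 (adjusted p = 0.625), and without line 420 replicate 1 the line 420 difference was -0.098 (adjusted p = 0.760), against -0.37 with it.

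Zap70 was 10.11, 9.83 and 10.28 in Lck-Dlx5 lymphomas, 10.58, 10.20 and 10.46 in line 72 tumors, 9.98, 9.88 and 9.36 in line 420 tumors, 9.98, 9.82, 10.54 and 10.51 in double transgenic tumors, and 10.16, 10.12 and 10.05 in WT. All line 72 arrays were above WT and all line 420 arrays below it, but neither group passed the test against WT (0.30 ± 0.21, adjusted p = 0.277, and -0.37 ± 0.21, adjusted p = 0.195, SE). Set against each other, line 420 tumors differed from line 72 tumors by -0.68 ± 0.21 (SE), with an adjusted p of 0.050047, just above the threshold of 0.05.

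Lat, the membrane adaptor that recruits phospholipase C-gamma and SLP-76, was lower than WT in both Lck-MyrAkt2 lines, most so in line 72. Its levels were 12.16, 12.15 and 12.26 in Lck-Dlx5 lymphomas, 11.74, 11.38 and 11.51 in line 72 tumors, 11.997, 12.27 and 11.73 in line 420 tumors, 12.10, 12.08, 12.09 and 12.15 in double transgenic tumors, and 12.37, 12.42 and 12.31 in WT. Every tumor was below every WT sample. Line 72 tumors were 1.77-fold below WT (-0.82 ± 0.13 SE, adjusted p = 2.35e-04) and line 420 tumors 1.29-fold below it (-0.37 ± 0.13, adjusted p = 0.0391). The line 420 call was lost when any 1 of the arrays compared was left out except line 420 replicate 2, with an adjusted p of 0.0687 to 0.177 and a difference of -0.23 without line 420 replicate 3. It was also lost with equal array medians, with the dim genes left in and with every feature tested, and held in 6 of 18 alternatives. In Lck-Dlx5 and double transgenic tumors the differences of -0.17 ± 0.13 (adjusted p = 0.315) and -0.26 ± 0.12 (adjusted p = 0.123) did not pass.

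Ordered from low to high, the Lat means were 11.54 ± 0.18 in line 72, 11.998 ± 0.27 in line 420, 12.10 ± 0.03 in double transgenic and 12.19 ± 0.06 in Lck-Dlx5 tumors and 12.37 ± 0.05 in WT (SD, n = 3, and 4 for the double transgenic tumors). Between neighbors in this order only line 420 and line 72 tumors differed in limma (0.45 ± 0.13 SE, adjusted p = 0.0310). That call was lost without line 420 replicate 1 or 2 or line 72 replicate 2 or 3, with adjusted p between 0.0671 and 0.135. Lck-Dlx5 lymphomas were above line 72 tumors by 0.65 ± 0.13 (adjusted p = 0.00304), and double transgenic tumors were above line 72 tumors by 0.56 ± 0.12 (adjusted p = 0.00500).

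Lcp2, which encodes the cytosolic adaptor SLP-76, was lower than WT in the 3 groups labelled with 1 transgene. Its levels were 10.45, 10.92 and 11.28 in Lck-Dlx5 lymphomas, 11.39, 11.35 and 11.34 in line 72 tumors, 11.11, 11.29 and 11.01 in line 420 tumors, 11.24, 10.99, 12.05 and 11.80 in double transgenic tumors, and 12.09, 12.02 and 12.10 in WT. None of the 9 tumors of these groups reached a WT level, whereas 1 double transgenic tumor lay within the WT range. Lck-Dlx5 lymphomas were 2.27-fold below WT (-1.18 ± 0.24 SE, adjusted p = 0.00301), line 420 tumors 1.91-fold (-0.93 ± 0.24, adjusted p = 0.00984) and line 72 tumors 1.63-fold (-0.71 ± 0.24, adjusted p = 0.0329). The Lck-Dlx5 call held in all 19 alternatives, with adjusted p between 2.45e-04 and 0.0139. The line 72 call was lost when any 1 of the 6 arrays compared was left out, with adjusted p between 0.0634 and 0.0805 and a log2 difference between -0.73 and -0.69. Double transgenic tumors had a difference of -0.54 ± 0.22 (adjusted p = 0.0929). From low to high the means were 10.88 ± 0.41 in Lck-Dlx5, 11.13 ± 0.14 in line 420, 11.36 ± 0.03 in line 72 and 11.52 ± 0.49 in double transgenic tumors and 12.07 ± 0.04 in WT (SD), and no neighbors in this order passed the test. The summed log2 level of the 6 T cell markers was 58.1 to 65.2 in Lck-Dlx5, 64.5 to 65.8 in line 72, 58.6 to 63.7 in line 420 and 59.9 to 68.7 in double transgenic tumors and 68.3 to 69.0 in WT, and its part in the Lcp2 and Lat results was not tested. Of these 6 markers 2, 3, 4 and 1 were called lower than WT in that order, with median differences of -0.73, -0.53, -0.99 and -0.34. The shares of all tested genes called lower were 15.9%, 15.6%, 15.4% and 8.93%.

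Tec, a kinase of the family that activates phospholipase C-gamma downstream of SLP-76, was the gene whose direction depended on the tumor. Its levels were 6.71, 6.59 and 6.58 in Lck-Dlx5 lymphomas, 9.44, 8.47 and 9.05 in line 72 tumors, 7.30, 6.69 and 7.07 in line 420 tumors, 6.51, 6.999, 8.54 and 8.26 in double transgenic tumors, and 7.86, 7.89 and 7.75 in WT. Every line 72 array was above WT and every Lck-Dlx5 and line 420 array below it, and the double transgenic tumors lay on both sides. From low to high the means were 6.62 ± 0.08 in Lck-Dlx5, 7.02 ± 0.31 in line 420, 7.58 ± 0.98 in double transgenic and 8.99 ± 0.49 in line 72 tumors (SD), with WT at 7.83 ± 0.08 between double transgenic and line 72 tumors. Of the neighbors only line 72 tumors and WT differed in limma. The Lck-Dlx5 levels were close to the array medians.

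Tec was 2.31-fold lower in Lck-Dlx5 lymphomas than in WT (-1.21 ± 0.42 SE, adjusted p = 0.0418) and 2.23-fold higher in line 72 tumors against WT (1.15 ± 0.42, adjusted p = 0.0428). Both calls were near the threshold. Over 19 alternatives for Lck-Dlx5 the adjusted p ranged from 2.76e-04 to 0.102, and 9 kept the call. Over 19 for line 72 it ranged from 0.00151 to 0.145, and 10 kept the call. The shared spread of the main fit includes the double transgenic tumors, in which Tec had an SD of 0.98. The Lck-Dlx5 call was lost when any 1 of the 6 arrays compared was left out (adjusted p 0.0740 to 0.102, log2 difference -1.25 to -1.18) and with the shared spread taken without line 420 (0.0551). The line 72 call was lost without replicate 1 or 3 of line 72 or any 1 WT array (adjusted p 0.0887 to 0.145, log2 difference 0.93 to 1.18), and with the shared spread taken without line 420 (0.0564). Between the tumors the differences were larger: Tec was 5.14-fold lower in Lck-Dlx5 lymphomas than in line 72 tumors (-2.36 ± 0.42, adjusted p = 0.00170) and 3.91-fold lower in line 420 than in line 72 tumors (-1.97 ± 0.42, adjusted p = 0.00740). These calls held in all 19 and 18 alternatives run for them, at an adjusted p of at most 0.00887 and 0.0360. Double transgenic tumors were 2.66-fold below line 72 tumors (-1.41 ± 0.39, adjusted p = 0.0230), with overlapping ranges. That call was lost without double transgenic replicate 1 (adjusted p = 0.0502), without line 72 replicate 1 (0.0919) or 3 (0.0695) and with only the arrays compared (0.125). It rested on the double transgenic tumors of line 47, which were -2.23 from line 72 tumors (adjusted p = 1.43e-04), while those of line 86 were -0.59 from them (0.100).

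Of 7 macrophage markers, 1, 4, 3 and 1 were called higher than WT in Lck-Dlx5, line 72, line 420 and double transgenic tumors. The shares over all tested genes were 13.7%, 20.7%, 15.1% and 14.9%. Between line 420 and line 72 tumors 0 of 7 were called, beside 11.2% of all genes, and 2 of 7 were lower in Lck-Dlx5 than in line 72 tumors, beside 19.7% called in either direction. In line 72 tumors against WT 0 of 7 neutrophil markers were called. The summed log2 level of the 7 macrophage markers was 61.2 to 68.8 in line 72 tumors, 57.0 to 60.9 in Lck-Dlx5 lymphomas, 61.3 to 65.5 in line 420 tumors and 55.7 to 57.8 in WT, and that of the 7 neutrophil markers was 46.4 to 58.5 in line 72 tumors, 38.3 to 39.6 in Lck-Dlx5 lymphomas, 39.2 to 40.1 in line 420 tumors and 50.8 to 55.4 in WT. The summed level of the 4 NK cell markers was 20.6 to 22.5 in line 72 tumors and 21.1 to 21.2 in Lck-Dlx5 lymphomas. It was 20.6 to 21.3 in line 420 tumors and 21.2 to 21.7 in WT. Of these 4 markers, at most 1 was above the array median on line 72 arrays and 0 on the others. Among the tested genes there were 0 of them. The summed level of the 4 mast cell markers was 21.4 to 25.9 in line 72 tumors and 24.1 to 24.4 in WT. It was 20.3 to 20.8 in Lck-Dlx5 lymphomas and 19.9 to 22.6 in line 420 tumors. Within line 72, replicate 2 had the highest macrophage, neutrophil and mast cell sums and the lowest Tec level. Its NK cell sum was the lowest of the line, at 20.6, beside 22.5 in replicate 1 and 21.8 in replicate 3. Cpa3, 1 of 2 tested mast cell genes, was lower in Lck-Dlx5 lymphomas than in WT (-2.76, limma adjusted p = 0.0201) and line 72 tumors (-3.20, 0.0136). In line 72 tumors against WT it was not called (0.44, 0.713). Kit, the other, was lower than WT in both (-1.06, adjusted p = 0.00996, and -1.03, 0.00808). The part of other cell types in the Tec result was not tested.

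**Figure D2:**
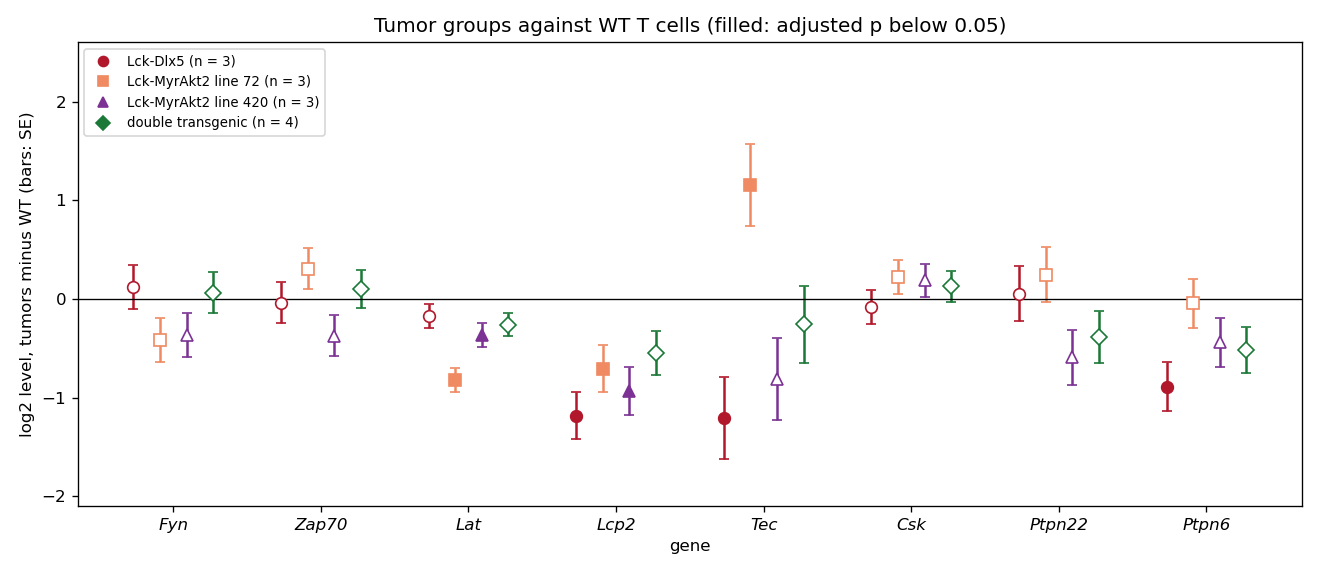
Log2 level of each tumor group minus WT for the 8 genes on the x axis, with the standard error of the limma fit as bars; filled symbols passed an adjusted p of 0.05 and open symbols did not. Lcp2 is below 0 in all 4 groups and filled in 3, and Tec is filled at 1.15 in line 72 tumors and at -1.21 in Lck-Dlx5 lymphomas.

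Among the 3 genes that restrain the pathway, Ptpn6 passed the test in the planned comparisons and Csk and Ptpn22 did not. Ptpn6, the SHP-1 gene, was 9.30, 9.18 and 9.52 in Lck-Dlx5 lymphomas, 10.23, 10.07 and 10.24 in line 72 tumors, 10.46, 9.49 and 9.41 in line 420 tumors, 9.37, 9.39, 10.07 and 9.99 in double transgenic tumors, and 10.18, 10.21 and 10.29 in WT. Lck-Dlx5 lymphomas were below every WT and every line 72 array, 1.85-fold below WT (-0.89 ± 0.25 SE, adjusted p = 0.0163) and 1.80-fold below line 72 tumors (-0.85 ± 0.25, adjusted p = 0.0283). The call against WT was lost without Lck-Dlx5 replicate 2 (adjusted p = 0.0538) or WT replicate 3 (0.0515). The call against line 72 was lost without Lck-Dlx5 replicate 1 or 2 or line 72 replicate 1 or 3 (0.0719 to 0.0852). The neutrophil marker sums above were also lower in Lck-Dlx5 lymphomas than in WT and line 72 tumors, and their part in the Ptpn6 result was not tested. From low to high the Ptpn6 means were 9.33 ± 0.17 in Lck-Dlx5, 9.70 ± 0.37 in double transgenic, 9.79 ± 0.59 in line 420 and 10.18 ± 0.10 in line 72 tumors and 10.22 ± 0.06 in WT (SD), and no neighbors in this order passed the test. In double transgenic and line 420 tumors Ptpn6 was -0.52 ± 0.23 (adjusted p = 0.121) and -0.44 ± 0.25 (adjusted p = 0.203) from WT. Without line 420 replicate 1, the array at 10.46, the line 420 difference was -0.78 with an adjusted p of 0.0135.

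Csk, the kinase that switches off Src family kinases, was between 10.21 and 11.12 in all tumors and between 10.45 and 10.58 in WT. Its differences from WT were between -0.08 ± 0.17 in Lck-Dlx5 (adjusted p = 0.761) and 0.22 ± 0.17 (SE) in line 72 tumors (adjusted p = 0.341), with a 95% interval of -0.14 to 0.59 in line 72. Ptpn22, the phosphatase that works with Csk, was 10.92, 10.72 and 10.97 in Lck-Dlx5 lymphomas, 11.19, 10.60 and 11.40 in line 72 tumors, 11.00, 10.19 and 9.48 in line 420 tumors, 10.37, 10.40, 10.43 and 10.52 in double transgenic tumors, and 10.80, 10.85 and 10.79 in WT. The line 420 arrays spanned 1.52 on the log2 scale, the widest group range of Ptpn22, with a difference from WT of -0.59 ± 0.28 (SE, adjusted p = 0.125). Without line 420 replicate 1 it was -0.98 and called (adjusted p = 0.00699), and without replicate 3 it was -0.22 (0.519). The 4 double transgenic arrays lay close together below WT (-0.39 ± 0.26, adjusted p = 0.311), a difference that was called when only the arrays compared were fitted (0.0184).

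Between the tumor groups, 3 of 8 genes were called for Lck-Dlx5 against line 72 tumors (Lat, Tec and Ptpn6), where 19.7% of all tested genes were called. Line 420 against line 72 tumors gave 2 of 8 (Lat and Tec), beside 11.2% of all genes, and double transgenic against line 72 tumors gave the same 2 genes, beside 17.7%. The other 3 comparisons gave 0 of 8: Lck-Dlx5 against line 420 tumors (0.827% of all genes called), double transgenic tumors against Lck-Dlx5 lymphomas (1.86%) and double transgenic against line 420 tumors (0.178%). In the comparison of Lck-Dlx5 with line 420 tumors the 95% intervals still reached 1.24 for Ptpn22 and -1.29 for Tec, so differences of up to that size lie within the intervals that these arrays give.

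The double transgenic tumors fell apart by the founder line of the Dlx5 transgene for Tec and Lcp2, a comparison added after the values were seen. With the lines fitted as separate groups, Tec averaged 8.40 ± 0.19 in line 86 tumors and 6.75 ± 0.35 in line 47 tumors (SD, n = 2 each), 3.13-fold higher in line 86 (1.65 ± 0.27 SE, adjusted p = 0.00721). Lcp2 averaged 11.93 ± 0.17 in line 86 tumors and 11.12 ± 0.18 in line 47 tumors (0.81 ± 0.20 SE, adjusted p = 0.0418). Zap70 (10.52 in line 86 and 9.90 in line 47 tumors, adjusted p = 0.0981) and Ptpn6 (10.03 in line 86 and 9.38 in line 47 tumors, adjusted p = 0.177) did not pass. These 2 calls of 8 stand beside 4.28% of all tested genes. With the shared spread taken without line 420 tumors, Zap70 and Ptpn6 were called too, making 4 of 8, beside 6.03% of all tested genes. Of the 16 alternatives run, 9 lost the Lcp2 call and 1 the Tec call. Equal array medians, dim genes left in, every feature tested and only the arrays compared each lost the Lcp2 call. The Tec call was lost without replicate 3 (adjusted p = 0.0719) and the Lcp2 call without replicate 2, 3 or 4 (0.0936 to 0.291), each of which leaves 1 line with a single array that is assumed to vary like the other groups.

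Set against WT by line, double transgenic tumors of line 47 alone had lower Tec (-1.08, adjusted p = 0.00676), Lcp2 (-0.95, adjusted p = 0.00296) and Ptpn6 (-0.84, adjusted p = 0.0213), with 3 of 8 genes called, beside 29.5% of all tested genes. Line 86 alone had 0 of 8 called, beside 11.9%, and Tec at 0.57 above WT (adjusted p = 0.145). The summed level of the T cell markers moved with the founder line, at 68.6 to 68.7 in line 86 tumors, 59.9 to 63.3 in line 47 tumors and 68.3 to 69.0 in WT. The largest differences between the lines were in Cd5 (3.21, limma adjusted p = 0.0437), the 1 marker of 6 called, and Cd2 (2.75, 0.138). Cd3d, Cd3e and Cd3g differed by 0.47, 0.20 and 0.19. The part of T cell content in the differences between the lines was not tested. The line 47 tumors also carry letter sample codes and name line 420 as the source of MyrAkt2, whereas the line 86 tumors carry numbers and name no Akt2 line, so founder line, sample code and Akt2 line cannot be told apart.

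The rest of the receptor pathway was read from lists of genes set out by role. In Lck-Dlx5, line 72, line 420 and double transgenic tumors, these counts stand beside 15.9%, 15.6%, 15.4% and 8.93% of all tested genes called lower than WT and 13.7%, 20.7%, 15.1% and 14.9% called higher. Without the 3 arrays with letter sample codes (line 420 replicate 3 and both double transgenic tumors of line 47), which leaves the double transgenic tumors of line 86, the shares were 18.7%, 17.9%, 15.1% and 4.38% lower and 16.2%, 22.7%, 15.1% and 7.96% higher. The 6 measured receptor and coreceptor chains were lower than WT in 3 (Lck-Dlx5), 5 (line 72), 6 (line 420) and 1 (double transgenic) cases, with 0 higher and medians of -0.74, -1.27, -1.54 and -0.44. The largest of these were the CD8 chains in line 72, Cd8a at 7.54 in line 72 tumors and 12.70 in WT (-5.16 ± 0.42 SE, adjusted p = 1.83e-06) and Cd8b1 at 8.66 in line 72 tumors and 12.91 in WT (-4.26 ± 0.44). Cd4 was lower than WT in Lck-Dlx5 (-1.18), line 72 (-1.67) and line 420 tumors (-1.94). Cd3g, a chain of the CD3 complex, was lower in all 4 groups, and was the 1 chain called in double transgenic tumors (-0.42, adjusted p = 0.0165). Without the letter-coded arrays 4, 6, 6 and 0 chains were called lower, and Cd3g was no longer called in double transgenic tumors (-0.33, adjusted p = 0.123).

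The LAT complex partners are a list drawn up around Lat and SLP-76, and not every listed protein need bind them. They were called lower in 6, 11, 10 and 5 of 14 genes in Lck-Dlx5, line 72, line 420 and double transgenic tumors, with 0 called higher. Their median differences from WT were -0.57, -0.80, -0.61 and -0.44. The counts were 9, 12, 10 and 1 without the letter-coded arrays. Themis, which sets the strength of receptor signals in thymocytes, was 9.48 in line 72 tumors and 11.92 in WT (-2.44 ± 0.51 SE, adjusted p = 0.00207). Grap2, the GADS adaptor that links SLP-76 to Lat, was 9.75 in line 72 tumors and 11.54 in WT (-1.79 ± 0.30, adjusted p = 4.37e-04). Themis was lower in line 420 tumors too (-2.05 ± 0.51, adjusted p = 0.00789). Fyb, which binds SLP-76, was lower in all 4 groups, at -0.85 in Lck-Dlx5, -0.75 in line 72, -0.55 in line 420 and -0.80 in double transgenic tumors. Vav1, the exchange factor that docks on SLP-76, was lower in 3 of the groups (-0.70 in Lck-Dlx5, -0.66 in line 420 and -0.49 in double transgenic tumors), and Plcg1, the phospholipase C-gamma gene, in 3 as well (-0.84 in line 72, -0.93 in line 420 and -0.50 in double transgenic tumors). The double transgenic calls of Fyb, Vav1 and Plcg1 were lost without the letter-coded arrays (adjusted p 0.0749, 0.356 and 0.236).

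Of the other Src, Syk and Tec family kinases 5 were tested, of which 3, 2, 2 and 3 were lower in Lck-Dlx5, line 72, line 420 and double transgenic tumors and 0 higher. Txk, a Tec family kinase of T cells, was lower than WT in all 4 tumor groups: 8.91, 8.10, 6.88 and 8.89 in Lck-Dlx5, line 72, line 420 and double transgenic tumors against 10.63 in WT. Syk, the relative of Zap70 that is used in B cells and early thymocytes, was 6.65, 7.45, 7.32 and 6.87 in the same groups against 8.07 in WT, lower in all 4 as well. The B cell and neutrophil marker lists were lower in Lck-Dlx5 lymphomas than in WT too, with 3 of 5 and 6 of 7 markers called, and their part in the Syk difference was not tested. Btk, the Tec family kinase of B cells, was the third in Lck-Dlx5 (-0.80) and double transgenic tumors (-0.58). Without the letter-coded arrays 3, 2, 2 and 1 were lower, the double transgenic tumors keeping Syk (-1.30, adjusted p = 7.94e-04) but not Txk (-1.08, 0.234) or Btk (-0.48, 0.115).

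The 20 negative regulators had 1 gene higher and 5 lower in Lck-Dlx5, 1 and 5 in line 72, 1 and 8 in line 420, and 2 and 3 in double transgenic tumors. These counts were 1 and 10, 3 and 5, 1 and 8, and 2 and 0 without the letter-coded arrays. Ubash3b, the Sts-1 phosphatase that acts on Zap70, stood on the same side of WT as Tec in both groups in which it was called, at 8.91 in line 72 tumors against 6.69 in WT (2.22 ± 0.31 SE, adjusted p = 1.26e-04) and at 5.62 in Lck-Dlx5 lymphomas (-1.08 ± 0.31, adjusted p = 0.0192). The gene called higher in Lck-Dlx5 and line 420 tumors was Ptpn11, the SHP-2 gene (0.36 and 0.42), and in double transgenic tumors Ptpn11 (0.44) and Ptpn2 (0.35). Dgka, a diacylglycerol kinase that ends the Ras arm of the signal, was lower in Lck-Dlx5 (-2.21), line 72 (-1.78), line 420 (-2.75) and double transgenic tumors (-2.13). Without the letter-coded arrays the double transgenic calls of Dgka (-1.74, adjusted p = 0.121) and Ptpn2 (0.37, 0.0906) were lost, and Ubash3b was called lower in line 420 (-0.88) and higher in double transgenic tumors (0.66) too. Cd5, a surface receptor that dampens receptor signals, was 11.74 in line 86 and 8.53 in line 47 double transgenic tumors (3.21 ± 0.81, adjusted p = 0.0437), and 7.86 in line 420 tumors against 11.30 in WT.

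The 7 positive inputs had 0 genes higher and 1 lower in Lck-Dlx5, 2 and 1 in line 72, 1 and 4 in line 420, and 0 and 2 in double transgenic tumors. With the letter-coded arrays left out, they were 0 and 2, 2 and 2, 1 and 3, and 0 and 0. Ptprj, the phosphatase CD148, was higher than WT in line 72 (1.25 ± 0.30 SE, adjusted p = 0.00543) and line 420 tumors (1.45 ± 0.30, adjusted p = 0.00293). The other gene called higher in line 72 was Unc119, an activator of Src kinases in T cells (0.94, adjusted p = 0.0118). Cd6, a coreceptor that binds SLP-76, was lower in Lck-Dlx5 (-2.099) and line 420 tumors (-3.36). Of 10 downstream signal carriers, 7 were lower in Lck-Dlx5, 3 in line 72, 5 in line 420 and 2 in double transgenic tumors, and 0 were higher. Nfatc3, a transcription factor switched on by calcium, and Stim1, the calcium sensor of the endoplasmic reticulum, were lower in all 4 groups (-0.61, -1.28, -0.90 and -0.60 for Nfatc3, and -0.56, -1.01, -0.63 and -0.38 for Stim1). Without the letter-coded arrays 7, 4, 7 and 1 carriers were lower and 1 was higher, in line 72, and in double transgenic tumors the call of Nfatc3 held (-0.56, adjusted p = 0.0314) while that of Stim1 was lost (-0.29, 0.252). Prkcq, the protein kinase C of the T cell synapse, was lower in Lck-Dlx5 lymphomas (-1.72, adjusted p = 0.0370) and line 72 tumors (-1.92, adjusted p = 0.0177), and Rasgrp1, which activates Ras, was lower in line 420 tumors (-2.89, adjusted p = 0.0105).

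**Figure D3:**
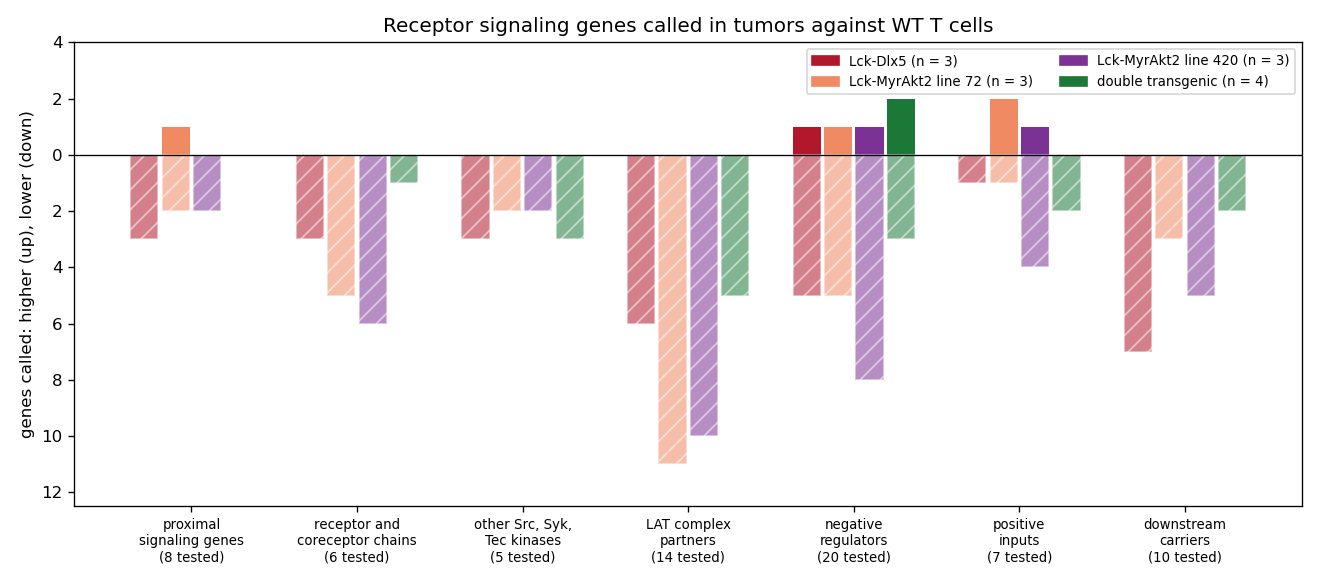
Number of genes called higher (solid, upward) or lower (hatched, downward) than WT in each pathway list on the x axis, with the number tested in brackets and 1 bar per tumor group. The LAT complex partners have 11 of 14 genes lower in line 72 tumors and 0 higher in all 4 groups.

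Over the 16 arrays, which share the 5 groups, Pearson's r between pairs of the 8 genes was between -0.49 (Lat and Tec) and 0.76 (Tec and Ptpn6, 0.80 over the 13 tumors). Without the line 72 arrays the first was 0.18 and the second 0.76. The tested genes whose levels were most like Tec were Il2rb (r = 0.97), the beta chain of the interleukin-2 receptor, Ssh1 (0.96) and Chn2 (0.95). Il2rb averaged 6.83 ± 0.36 in Lck-Dlx5, 10.08 ± 0.75 in line 72, 6.98 ± 0.50 in line 420 and 8.03 ± 1.04 in double transgenic tumors, and 8.60 ± 0.16 in WT (SD, n = 3, and 4 for the double transgenic tumors), and r was 0.92 without line 72. Within the double transgenic tumors Il2rb split with Tec, at 8.84 and 9.01 in line 86 tumors and 7.01 and 7.26 in line 47 tumors.

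For Lat the most alike were Ssbp2 (0.95), Cd8b1 (0.95) and Cd8a (0.94), the last pair being the chains of CD8. These were 0.84, 0.81 and 0.82 without line 72, in which Cd8a was 8.72, 7.12 and 6.78. For Lcp2 they were Pdk2 (0.95), Ppp1r13b (0.95) and Gtpbp2 (0.94), and for Ptpn6 Cd37 (0.89), a tetraspanin of lymphocytes, Itm2a and Ubxn11. Usp11 was the most alike for Fyn (0.91), Irf2bp2 for Zap70 (0.88), Tssk4 for Csk (0.85) and Bpgm for Ptpn22 (0.83). All these r describe 16 arrays of 5 groups and carry no test.

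**Figure D4:**
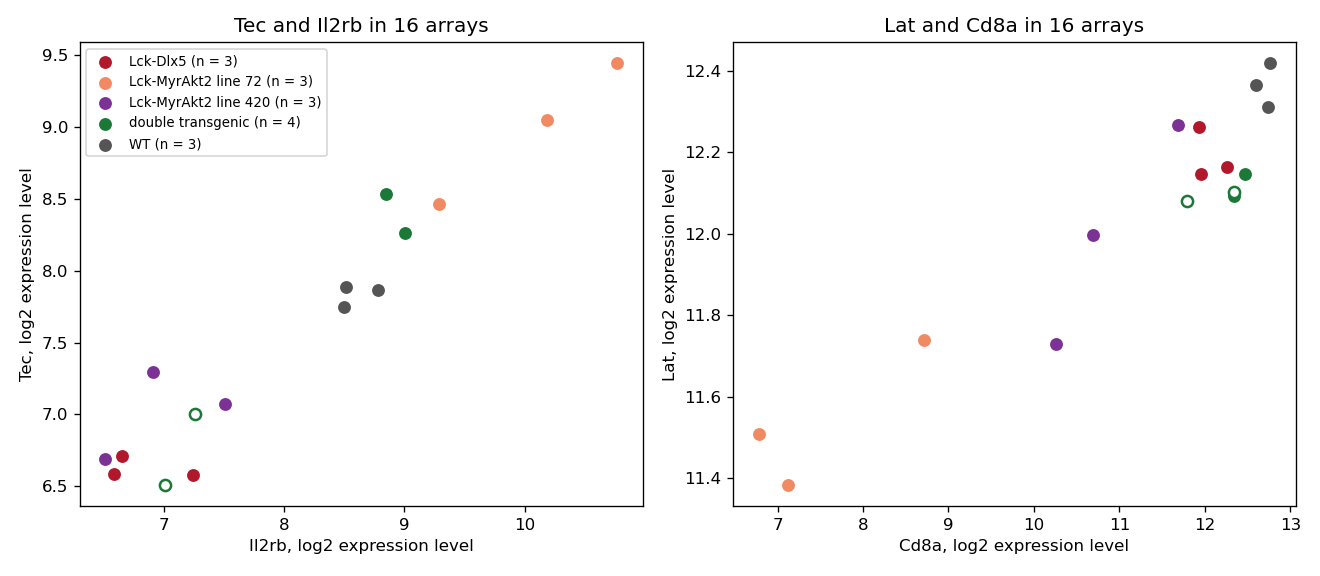
Log2 level of Tec against Il2rb (left) and of Lat against Cd8a (right), 1 point per array, colored by group; open green points are double transgenic tumors of founder line 47. Line 72 tumors have the highest Il2rb levels of all arrays on the left and the lowest Cd8a levels, 6.78 to 8.72, on the right.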

How the data were processed

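RNA of 16 samples was hybridized to Affymetrix Mouse Gene 2.0 ST arrays. The deposited values are log2 expression levels of transcript clusters. Affymetrix Expression Console is the tool that the submitters' processing notes name for them. The version, the summarization and the normalization are not given in the sources used here. The values were used as deposited. Of 41345 features, 23521 are annotated with 1 gene, 1820 with several and 16004 with none. The brightest single-gene feature was kept per gene, and a gene was tested when above the array median on at least 3 arrays. Lck and some genes of the pathway and marker lists were not analysed here.

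Means of 5 groups were fitted to all 16 arrays with limma 3.58.1 (R 4.3.3) and eBayes, with Benjamini-Hochberg adjustment over 12932 genes in each comparison and calls at an adjusted p under 0.05. The comparison between founder lines of the double transgenic tumors (6 group means) was added after the values were seen, as were the fits without letter-coded arrays, without line 420 and with founder line as a block. The number of arrays limits the precision. The study's methods name the Lck-Dlx5 and line 72 samples as primary tumors of mice, and the WT samples are labelled as separate littermates. For the line 420 and double transgenic tumors, where nothing more than a number of their own tells the animals apart, p-values may measure only the spread between these samples, which may be technical. The steps were tested on simulated data. Alternatives are given in the closing section. The genes and lists were chosen with earlier results of these data known. Named genes are the 8 measured genes, up to 3 called genes of largest change per pathway list and comparison (some only counted), and the 3 genes with the highest r to each. Figures were drawn with matplotlib 3.10.9 (Python 3.11.15), and promoter windows and gene positions are RefSeq's on GRCm38.p6.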

Additional observations from a re-analysis of the deposited data

Results flagged for a closer look

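The difference between the 2 Lck-MyrAkt2 founder lines was tested directly. Tec was lower in line 420 than in line 72 tumors (-1.97 on the log2 scale), and Lat was higher by 0.45.

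The difference between the founder lines of the double transgenic tumors was tested after the values were seen, with 2 arrays a line. Tec was higher in line 86 than in line 47 tumors by 1.65 and Lcp2 by 0.81. No single array of the double transgenic tumors stood apart from the other 3 for any of the 8 genes by Dixon's ratio, and the groups of 3 were not checked.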

How the results depend on the processing

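The counts of the 8 genes called moved by over 1.5 times in 60 cases and not in 155. With calls at an adjusted p under 0.01 the count was 1 for Lck-Dlx5, line 72 and line 420 tumors against WT, for line 420 and for double transgenic against line 72 tumors, and for double transgenic tumors of line 86 against line 47. With a log2 difference of at least 1 required it was 1 in line 72 tumors and 0 in line 420 tumors against WT, 1 in each of Lck-Dlx5, line 420 and double transgenic against line 72 tumors, and 1 for line 86 against line 47. The shares of all tested genes that pass these stricter settings were not counted, so these counts have no share to be set beside. Equal array medians, leaving the dim genes in and testing every feature each gave 1 in line 420 tumors against WT and 1 for line 86 against line 47. The shares of all that was tested were 28.6%, 16.1% and 21.2% against WT and 3.36%, 1.83% and 1.70% between the lines. Every feature and quantile normalization also gave 1 for line 420 against line 72 tumors, beside 5.62% and 11.0%. Fitting only the arrays compared gave 1 in double transgenic tumors against WT, 1 for line 420 and 1 for double transgenic against line 72 tumors, and 1 for line 86 against line 47. These stand beside 21.0%, 6.29%, 9.30% and 1.47% of all tested genes. Array weights gave 6 in line 420 and 1 in double transgenic tumors against WT, and 2 and 1 for double transgenic against Lck-Dlx5 and line 420 tumors, beside 41.8%, 36.8%, 9.44% and 4.99% of all tested genes. The sample code type as a term gave 1 in line 420 tumors against WT, and 4, 1 and 1 for double transgenic against Lck-Dlx5, line 72 and line 420 tumors, beside 25.7%, 10.4%, 19.1% and 3.19%. A shared spread without line 420 gave 1 in double transgenic tumors against WT and 4 for line 86 against line 47. The shares of all tested genes were 23.4% and 6.03%. Double transgenic tumors of line 47 alone gave 3 against WT, and those of line 86 alone 2 against Lck-Dlx5 and 3 against line 420 tumors, beside 29.5%, 14.9% and 10.2% of all tested genes. With founder lines 47 and 86 as a block and without the Lck-Dlx5 lymphoma of line 63, double transgenic against Lck-Dlx5 tumors gave 0, beside 2.88% of all tested genes (1.86% without the block).

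Leaving out 1 array gave counts against WT of 1 to 2 in Lck-Dlx5 and in line 72 tumors. They were 1 to 3 in line 420 and 0 to 1 in double transgenic tumors. Against line 72 tumors they were 2 to 3 for Lck-Dlx5, 1 to 4 for line 420 and 1 to 2 for double transgenic tumors. For double transgenic against Lck-Dlx5 tumors the count was 0 to 1. Of all tested genes, 18.3% to 25.2%, 26.9% to 32.3%, 20.5% to 26.3% and 12.9% to 26.4% were called against WT, in the order given. Against line 72 tumors the shares were 12.8% to 16.1%, 6.92% to 9.50% and 11.4% to 22.1%. For double transgenic against Lck-Dlx5 tumors the share was 0.108% to 6.09%.

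Of the differences of single genes, 688 kept their direction and side of the threshold, 80 lost a call, 14 gained one and 11 changed sign. None of the 11 was called before or after. Tec in double transgenic tumors against WT was 0.13 with array weights, 0.22 with the sample code term and 0.57 in line 86 alone. Zap70 there was -0.21 in line 47 alone, and Ptpn6 in line 72 tumors against WT was 0.016 with equal array medians. Leaving out 1 array moved Csk between -0.21 and 0.036 and Zap70 between -0.14 and 0.080 in Lck-Dlx5 lymphomas, Ptpn6 between -0.073 and 0.014 in line 72 tumors, Csk between -0.020 and 0.35 in line 420 tumors, and Zap70 between -0.0075 and 0.23 and Tec between -0.58 and 0.10 in double transgenic tumors, each against WT. The cause of these changes was not tested.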
